A study of Mus musculus with 20 samples.

Results

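The genes described here are 10 markers of GABAergic interneurons, Gad1, Gad2, Pvalb, Sst, Vip, Npy, Calb2, Cck, Lhx6 and Reln, taken as a list of symbols and found by matching the Ensembl IDs of the table to mouse gene symbols. All 10 were present among the 19463 genes of the table. RNA was measured in whole brains of male C57BL/6J mice at P21 (labelled as an age of 3 weeks) and at P70 (10 weeks), in WT mice and in mice lacking Katnal2 (Katnal2-KO), with 5 mice in each of the 4 groups and 20 mice in all. Katnal2 encodes a relative of the microtubule-severing protein katanin. The Katnal2-KO line came from the EUCOMM allele Katnal2 tm1a, mated with Protamine-Flp mice and exposed as embryos to HTNC, a cell-permeable Cre recombinase. KO mice were homozygous for a frame-shifting deletion of an exon, carried in all tissues and from before birth, and the line was backcrossed to C57BL/6J. Each sample was labelled as a mouse of its own. All values below are normalized counts, that is, read counts that the authors divided by size factors, and a log2 change is a difference of log2(normalized count + 1).

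GABA is the main inhibitory transmitter of the adult brain, and it is made from glutamate by the enzymes that Gad1 and Gad2 encode. Cortical and hippocampal interneurons fall into classes named by the calcium-binding proteins and peptides they make, with Pvalb cells firing fast onto cell bodies, Sst cells reaching dendrites, and Vip cells acting largely on other interneurons. In whole brain RNA these genes are also transcribed by other cells: Gad1 and Gad2 by striatal projection neurons and Purkinje cells, Pvalb by Purkinje cells, Calb2 and Reln by cerebellar granule cells, and Cck by many cortical excitatory neurons. In bulk samples such as these, fewer cells of a type and less RNA per cell cannot be told apart.

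The summed values of the 20 mice lay between 27310523 and 28423042, and since these sums were already normalized the read depth behind them is unknown. In mice labelled KO, Katnal2 was at 78.1 to 96.0 at P21 and at 95.1 to 125 at P70, against 99.3 to 115 and 101 to 141 in WT mice. The KO and WT values were apart at P21 (p = 0.00794 by an exact permutation test, two-sided, which is the lowest value that 5 against 5 can reach) and overlapped at P70 (p = 0.0794 by the same exact permutation test), so reads from the targeted gene were still present in the KO mice. Both P70 mice numbered 5, the WT and the KO one, stood apart from all others. On the first principal component of all genes, which held 23.35% of the variance, they were at 55.4 and 70.3, while the other P70 mice lay between -4.27 and 11.4 and the P21 mice between -26.6 and 3.55. In these 2 mice, genes with transcripts under 1 kb (1274 genes) lay 0.46 and 0.61 higher on the log2 scale, relative to the mean of all mice, than genes with transcripts over 5 kb (3113 genes), against -0.25 to -0.01 in the other P70 mice and -0.13 to 0.30 in P21 mice. Since the markers differ widely in length, from 566 bases for Npy to 11699 bases for Reln, the age changes of the markers are also given without the mice numbered 5.

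Compared per length, as normalized counts per kb of transcript, the peptide genes Cck and Sst were the most abundant of the markers, while the peptide genes Npy and Vip lay further down. In P21 WT mice Cck was at 5564 ± 751 and Sst at 4900 ± 484 per kb (SD, n = 5), and the values of the 2 genes overlapped. Next came Gad1 at 2773 ± 175, Calb2 at 2632 ± 229, Pvalb at 2489 ± 248 and Npy at 2141 ± 215 per kb, and each of these overlapped its neighbour in the order. Gad2 stood apart from both of its neighbours at 1130 ± 46.9 per kb. Reln at 389 ± 51.6 and Vip at 356 ± 14.0 per kb overlapped each other, and Lhx6 was lowest at 127 ± 19.8 per kb. The order from Cck to Gad2 was much the same in the other groups, with 1 shift: Calb2 lay above Pvalb in P21 WT mice and below it in the other 3 groups, and in P70 WT mice the values of Pvalb (2246 to 3609 per kb) and Calb2 (1699 to 2190 per kb) did not overlap.

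Stretches of sequence just before the start sites of Sst, Cck and Npy are shown here because the levels of these 3 peptide genes moved together from mouse to mouse, as described further on. They come from RefSeq on GRCm38.p6, and 9 of the 10 markers had an entry. Capitals mark the core of the cAMP response element, the 5 letters TGACG on either strand (so also CGTCA). The 8-letter element TGACGTCA holds both cores, which overlap in it. The stretch of Sst is held to 30 bases because the GENCODE model of the gene begins further upstream than the RefSeq one, and those of Cck and Npy are the 150 bases before the start.
Sst, chr16:23890874-23890903, minus strand: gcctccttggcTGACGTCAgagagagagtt
Cck, chr9:121495695-121495844, minus strand: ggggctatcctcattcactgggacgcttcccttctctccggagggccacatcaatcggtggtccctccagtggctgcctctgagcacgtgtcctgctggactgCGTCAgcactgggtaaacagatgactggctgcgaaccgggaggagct
Npy, chr6:49822560-49822709, plus strand: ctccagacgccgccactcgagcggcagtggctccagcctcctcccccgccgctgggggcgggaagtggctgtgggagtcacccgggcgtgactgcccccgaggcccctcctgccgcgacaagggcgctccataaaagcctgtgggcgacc
The full element of Sst began 48 bases before the start, and the core of Cck began 47 bases before it. Npy held neither in its 150 bases. Of the other markers with an entry, Vip and Gad2 held the core, 79 and 33 bases before the start, and Gad1, Pvalb, Lhx6 and Reln did not. Over all 32851 RefSeq windows of the same 150 bases, 13.3% held the core and 1.36% the full element. These matches describe letters in a window and say nothing of binding.

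**Figure D1:**
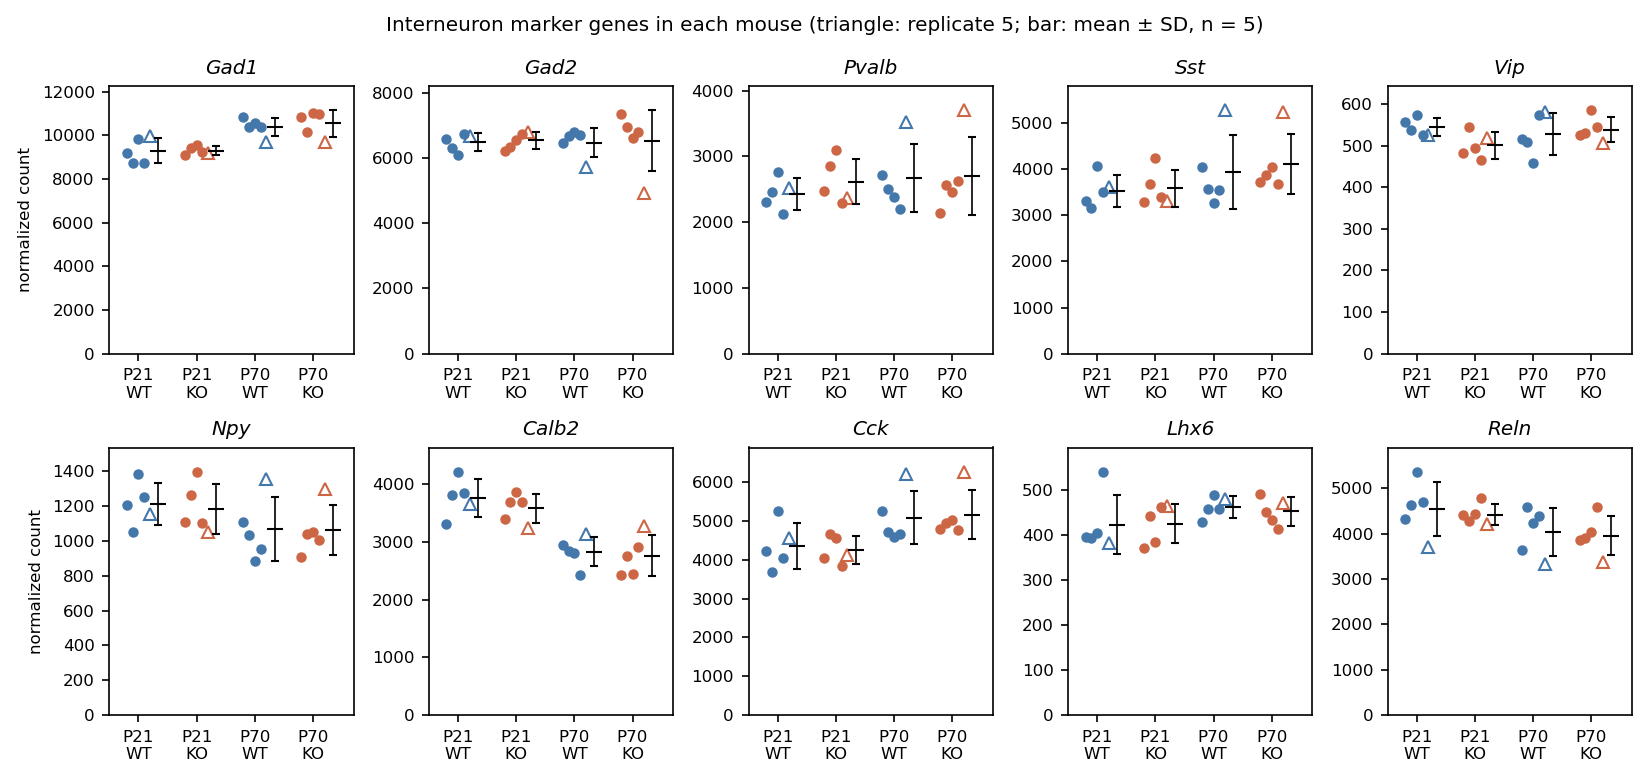
Normalized counts (y axis, from 0) of the 10 marker genes in each of the 20 mice, by age and genotype (x axis). Blue points are WT and orange points KO mice, open triangles are the mice numbered 5, and black bars give the mean ± SD of 5 mice. KO and WT values overlap for every gene at both ages, Calb2 is lower at P70, and the P70 triangles of Pvalb, Sst, Npy and Cck lie above the other mice of their groups while those of Gad2 lie below.

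Whether loss of Katnal2 changed the interneuron markers was asked by comparing KO with WT mice at each age. At P21 none of the 10 markers passed the test, and KO and WT values overlapped for all 10. At P70 the outcome was the same, 0 of 10 passing and 10 of 10 overlapping. The largest difference at P21 was that of Vip, at -8.09% in KO mice, and the largest at P70 was that of Sst, at 4.91%. All 10 markers were above the minimum for testing. Over all genes tested, 0% of 17610 at P21 and 0% of 17613 at P70 passed (limma, Benjamini-Hochberg over all genes, threshold 0.05). Before adjustment 429 genes (2.44%) had p under 0.05 at P21 and 199 (1.13%) at P70, and the markers had 0 of 10 at both ages. Values of KO and WT mice did not overlap for 0.46% of genes at P21 and 0.193% at P70. The markers therefore did not stand out from this background at either age.

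Gad1 and Gad2, which encode the enzymes of GABA synthesis, were the most closely bounded of the markers at P21. Gad1 (ENSMUSG00000070880, GRCm38 chromosome 2, 70553072 to 70602014, plus strand) was at 9197, 8753, 9852, 8742 and 9972 in P21 WT mice 1 to 5 and at 9085, 9421, 9567, 9252 and 9213 in P21 KO mice. All 5 KO values lay inside the WT range, and the log2 difference was 0.00 (standard error 0.05, 95% confidence interval -0.10 to 0.10). At P70 Gad1 was at 10865, 10375, 10570, 10403 and 9711 in WT mice and at 10863, 10176, 11045, 10999 and 9678 in KO mice, with mouse 5 lowest in both genotypes, and KO differed from WT by 0.02 (standard error 0.06). Gad2 (ENSMUSG00000026787, chromosome 2, 22622205 to 22693874, plus strand) ranged from 6105 to 6754 in WT and from 6227 to 6815 in KO mice at P21, a difference of 0.01 (interval -0.08 to 0.11). At P70 it ranged from 5717 to 6800 in WT and from 4930 to 7361 in KO mice, and the lowest value of each genotype was that of mouse 5.

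Pvalb and Sst define the main classes of interneurons that arise in the medial ganglionic eminence, and Lhx6 is a transcription factor those cells need. Pvalb (ENSMUSG00000005716, chromosome 15, 78191114 to 78206400, minus strand) encodes the calcium buffer parvalbumin. It was at 2306, 2455, 2769, 2118 and 2512 in P21 WT mice and at 2479, 2847, 3092, 2287 and 2360 in P21 KO mice. The 2 highest of these values were KO values, yet the ranges overlapped and the log2 difference of 0.10 (standard error 0.09, interval -0.09 to 0.29) did not pass. At P70 Pvalb was at 2717, 2503, 2386, 2195 and 3526 in WT and at 2132, 2565, 2459, 2623 and 3702 in KO mice, with mouse 5 far above the others in both, and the difference was 0.01 (standard error 0.15). Sst (ENSMUSG00000004366, chromosome 16, 23889573 to 23890958, minus strand), the gene of the inhibitory peptide somatostatin, was at 3312, 3155, 4071, 3515 and 3610 in P21 WT mice and at 3295, 3686, 4247, 3402 and 3323 in P21 KO mice. In both genotypes mouse 3 was highest. At P70 Sst was at 4051, 3575, 3265, 3563 and 5285 in WT and at 3729, 3886, 4043, 3678 and 5252 in KO mice, a difference of 0.07 (standard error 0.14). Lhx6 (ENSMUSG00000026890, chromosome 2, 36081953 to 36105408, minus strand) ranged from 383 to 541 in WT and from 373 to 466 in KO mice at P21, and from 429 to 490 and from 413 to 493 at P70. It differed between the genotypes by 0.01 at P21 and by -0.03 at P70, with the ranges overlapping.

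Vip and Calb2 mark classes from the caudal ganglionic eminence that act largely on other interneurons, while Npy, Cck and Reln are made by several classes. Vip (ENSMUSG00000019772, chromosome 10, 5639218 to 5647617, plus strand), the gene of vasoactive intestinal peptide, was at 557, 538, 575, 526 and 525 in P21 WT mice and at 482, 546, 494, 464 and 518 in P21 KO mice. Of the KO values 4 lay below the lowest WT value, and 1 lay inside the WT range. The log2 difference was -0.12 (standard error 0.06, interval -0.25 to 0.01, unadjusted p = 0.0634 and adjusted p = 1.00 from limma). At P70 Vip was at 516, 509, 459, 574 and 582 in WT and at 525, 532, 585, 545 and 506 in KO mice, so the ranges overlapped widely and the difference was 0.03 (standard error 0.09). The change of the Vip difference between the ages, 0.15 (standard error 0.10, interval -0.05 to 0.36), did not pass either (unadjusted p = 0.139 from limma). Without the mice numbered 5 that change was 0.24 (standard error 0.10, unadjusted p = 0.0327 from limma), which did not pass after adjustment. Of the 4 remaining genes, Calb2 differed by -0.07 (interval -0.21 to 0.07) at P21 and -0.04 (interval -0.26 to 0.18) at P70. Npy differed by -0.04 and -0.00, Cck by -0.03 and 0.02, and Reln by -0.03 and -0.03, each with its ranges overlapping. At P70 the intervals of the main fit ran from -0.33 to 0.35 for Pvalb, from -0.23 to 0.37 for Sst and from -0.28 to 0.27 for Npy. True changes anywhere within these bounds remained compatible with the values of all mice, and the bounds are not a limit of detection. Without the mice numbered 5 the standard error was smaller, 0.08 in place of 0.15 for Pvalb, 0.06 in place of 0.14 for Sst and 0.08 in place of 0.13 for Npy, and the KO differences of -0.00, 0.09 and 0.01 again did not pass (limma).

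The interaction of age and genotype, fitted on all 20 mice, passed for 0 of 10 markers, against 0% of 17637 genes (limma), and 0 of 10 had an unadjusted p under 0.05. Its estimates ran from -0.09 for Pvalb to 0.15 for Vip.

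**Figure D2:**
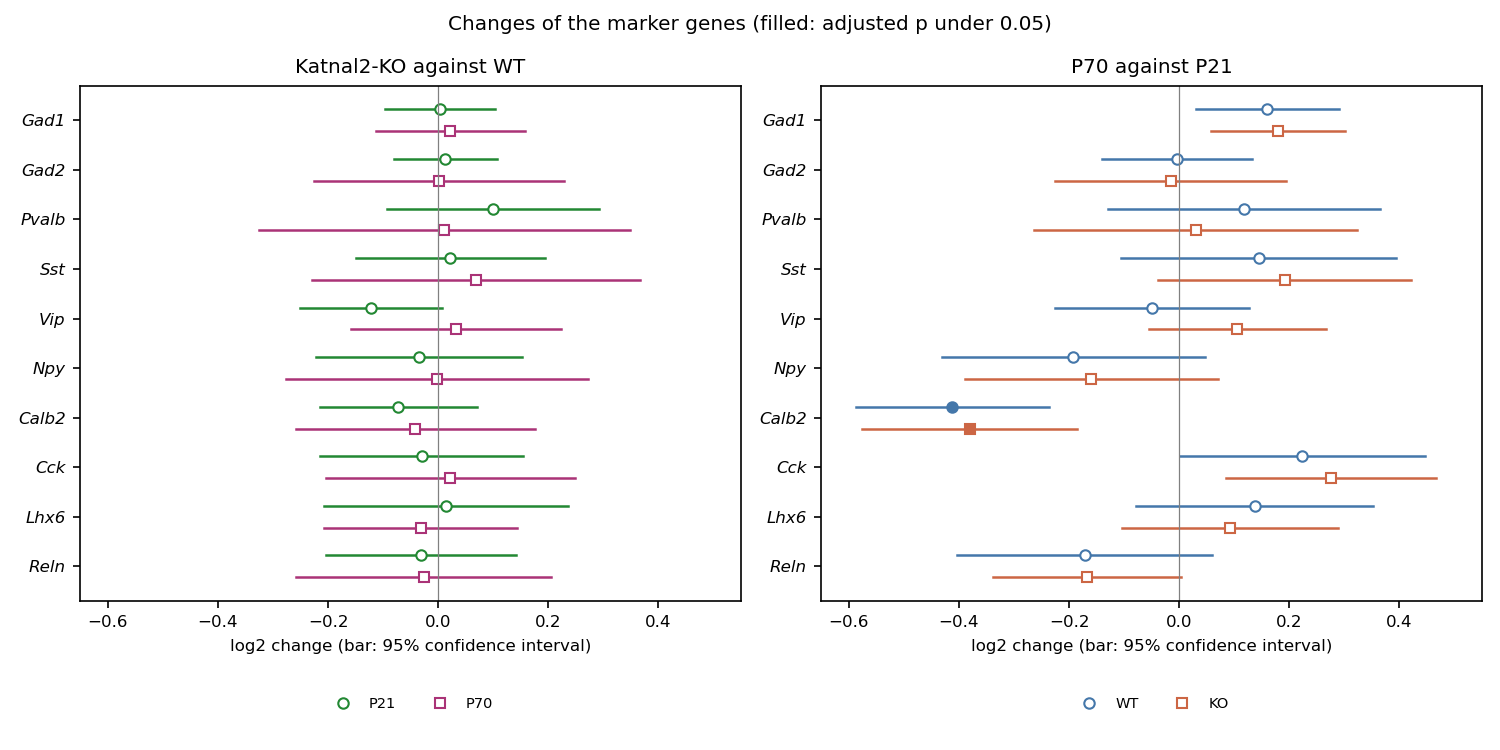
Log2 changes of the 10 marker genes (x axis) for KO against WT at P21 and P70 (left) and for P70 against P21 in WT and KO mice (right). Points are limma estimates, bars are 95% confidence intervals and filled points passed at an adjusted p under 0.05. In the left panel every interval holds 0, and in the right panel Calb2 is filled in both genotypes.

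The second question was how the markers changed from P21, the age of weaning, to the adult age of P70. Calb2, which encodes the calcium-binding protein calretinin, fell by 24.8% in WT and by 23.2% in KO mice and was the only one of the 10 markers to pass in each of the separate fits. Gad1 and Cck were higher at P70 by 11.7% and 16.8% in WT and by 13.2% and 21.1% in KO mice, which did not pass in either genotype by itself with all mice. Without the mice numbered 5, Gad1 passed in each genotype, at 0.21 in WT (adjusted p = 0.0175 from limma) and 0.21 in KO (adjusted p = 0.00650), Npy passed in KO mice at -0.28 (adjusted p = 0.0383) and was at -0.30 in WT mice (adjusted p = 0.0506), and Cck passed in neither. In WT mice 1 of 10 markers passed, against 9.32% of all 17630 genes, and the P70 and P21 values did not overlap for 1 of 10 markers, against 10.8% of genes. In KO mice 1 of 10 passed, against 8.32% of 17641 genes, and values did not overlap for 2 of 10 markers (Cck and Gad1), against 10.9% of genes. These shares are near the background, so the list as a whole did not stand apart with age. The median log2 change of the 10 markers was 0.06 in both WT and KO mice, where the median of all genes was 0.00 and -0.01.

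Calb2 (ENSMUSG00000003657, chromosome 8, 110137502 to 110168210, minus strand) was at 3309, 3815, 4213, 3841 and 3653 in P21 WT mice and at 2952, 2844, 2801, 2432 and 3134 in P70 WT mice. Every P70 WT value lay below every P21 WT value, and the log2 change was -0.41 (standard error 0.08, adjusted p = 0.00706 from limma). In KO mice it was at 3403, 3690, 3870, 3690 and 3240 at P21 and at 2421, 2756, 2439, 2912 and 3277 at P70. There the value of P70 mouse 5 lay just above the lowest P21 value, and the change was -0.38 (standard error 0.09, adjusted p = 0.0213 from limma). Without the mice numbered 5 the change was -0.46 in WT and -0.48 in KO mice, so the fall was at least as large without them. The WT call held under all 19 alternative settings. The KO call held under 13 of 19, and with mice left out it was lost without P21 KO mouse 2, 3 or 4 or P70 KO mouse 1 or 3, at changes of -0.37 to -0.34 (the adjusted p reached 0.0681 from limma over the 19 alternatives).

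Some markers of other cells and regions where Calb2 is transcribed also differed between the ages, in both directions. In WT mice the P21 and P70 sums given below overlapped. In KO mice those of the olfactory bulb genes overlapped, and those of the granule cell genes narrowly did not. The summed level of 6 cerebellar granule cell genes was 22362 to 28829 in P21 WT, 23090 to 27471 in P21 KO, 20122 to 23590 in P70 WT and 17688 to 23088 in P70 KO mice. All 6 had negative changes with age in both genotypes, 1 of them passing in WT, 4 in KO mice and 5 in the mean of both genotypes. Cbln1, a synaptic organizer of granule cells, fell by 0.30 on the log2 scale in WT mice (adjusted p = 0.0342 from limma), Neurod1, a transcription factor of these cells, was at -0.30 there without passing, and Gabra6 was present in every mouse at 1495 to 2724. For 6 olfactory bulb genes the sums were 2961 to 4205 in P21 WT, 2755 to 3389 in P21 KO, 2428 to 3479 in P70 WT and 2261 to 3057 in P70 KO mice, with Tbx21 listed at 0 in 1 P21 KO and 1 P70 WT mouse. In that list Cdhr1 was at -0.60 and Eomes at 0.41 in WT mice, and none of the 5 genes tested passed. In KO mice 1 of the 5 passed, Eomes, which rose by 0.90 (adjusted p = 0.00205 from limma), and in the mean of both genotypes Eomes rose by 0.65 and Th fell by 0.42. Cajal-Retzius cells also make calretinin and reelin. Besides Calb2 and Reln themselves, the list for these cells held Trp73, which was higher at P70 in WT mice by 0.57 (adjusted p = 0.0417 from limma), Lhx1, Lhx5 and Ebf3. None of these 4 passed in KO mice, where Trp73 was at 0.47. Of the 6 genes of the list, Calb2 and Reln included, 3 had negative changes in WT and 5 in KO mice. In the mean of both genotypes 1 of the 6 rose and 2 fell, Calb2 being 1 of these 2. The part of these cells in the fall of Calb2 was not tested.

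Because the changes were alike in both genotypes, the mean of the WT and the KO age change was also fitted on all 20 mice, a comparison chosen after the separate ones were seen. In that fit 3 of 10 markers passed, against 25.4% of 17637 genes, so again the share was near the background. Calb2 fell by 0.40 (standard error 0.06, adjusted p = 6.15e-05 from limma), Gad1 rose by 0.17 (standard error 0.04, adjusted p = 0.00194) and Cck rose by 0.25 (standard error 0.07, adjusted p = 0.0124). All 3 calls held under each of the 28 alternatives of that fit. Gad2 was at -0.01 (interval -0.13 to 0.11) and did not pass, and without the mice numbered 5 it was at 0.07 (adjusted p = 0.0777 from limma).

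Cck, the gene of the peptide cholecystokinin (ENSMUSG00000032532, chromosome 9, 121489824 to 121495694, minus strand), was at 4227, 3694, 5244, 4047 and 4570 in P21 WT and at 5261, 4719, 4579, 4664 and 6198 in P70 WT mice. In KO mice it was at 4053, 4675, 4553, 3835 and 4123 at P21 and at 4791, 4937, 5022, 4766 and 6266 at P70. Every P70 KO value was above every P21 KO value, whereas in WT mice P21 mouse 3 lay inside the P70 range. In both genotypes P70 mouse 5 was highest, and without the mice numbered 5 the mean change of Cck over both genotypes was 0.18 (adjusted p = 0.0270 from limma). Excitatory neurons of the forebrain also make Cck, and the summed level of 6 of their genes was 37353 to 39177 in P21 WT, 35605 to 38638 in P21 KO, 33803 to 36611 in P70 WT and 32953 to 36997 in P70 KO mice. Their part in the rise of Cck was not tested. Slc17a7, the vesicular glutamate transporter, made up most of that sum and fell by 0.19 in WT mice (adjusted p = 0.0485 from limma). Of the 6 genes 4 had positive changes in each genotype, with a median of 0.07 in WT and 0.15 in KO mice, Neurod2 was at 0.22 in WT mice without passing and rose by 0.30 in KO mice (adjusted p = 0.0213 from limma), and in the mean of both genotypes 2 rose and 1 fell.

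The means of Npy and Reln were lower and that of Sst was higher at P70, but these differences did not pass with all mice. Npy (ENSMUSG00000029819, chromosome 6, 49822710 to 49829507, plus strand), the gene of neuropeptide Y, was at 1210, 1054, 1385, 1253 and 1158 in P21 WT and at 1109, 1262, 1398, 1102 and 1052 in P21 KO mice. At P70 it was at 1111, 1032, 886, 952 and 1359 in WT and at 911, 1043, 1052, 1004 and 1300 in KO mice. The P70 mice numbered 5 were the highest of their groups and lay inside the P21 range. The mean change was -0.18 (standard error 0.08, adjusted p = 0.112 from limma), and without the mice numbered 5 it was -0.29 (standard error 0.07, adjusted p = 0.00245). Reln (ENSMUSG00000042453, chromosome 5, 21884454 to 22344702, minus strand), which encodes the secreted protein reelin, ranged from 3708 to 5364 in P21 WT, 4212 to 4785 in P21 KO, 3320 to 4590 in P70 WT and 3380 to 4581 in P70 KO mice. Its mean change was -0.17 (adjusted p = 0.0785 from limma), and -0.15 (adjusted p = 0.0357) without the mice numbered 5. Sst behaved in the opposite way, with a mean change of 0.17 (adjusted p = 0.149 from limma) that was 0.06 (adjusted p = 0.484) once those mice were left out. Pvalb was at 0.07 with all mice and at -0.05 without those numbered 5, Vip at 0.03 and 0.02, and Lhx6 at 0.11 and 0.10, none of which passed.

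Subtracting from each mouse a smooth trend of its values on transcript length gave another reading, also chosen after the mice numbered 5 were seen to stand apart. Calb2 at -0.40, Gad1 at 0.17 and Cck at 0.27 were close to the values with no subtraction. Sst passed at 0.19 (standard error 0.04, adjusted p = 0.00112 from limma) and Npy at -0.14 (standard error 0.04, adjusted p = 0.0122), while Reln at -0.19 did not (adjusted p = 0.0696). The direction of the age change was the same in all 3 readings for Gad1, Sst, Vip, Npy, Calb2, Cck, Lhx6 and Reln, and it differed between readings for Gad2 and Pvalb.

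**Figure D3:**
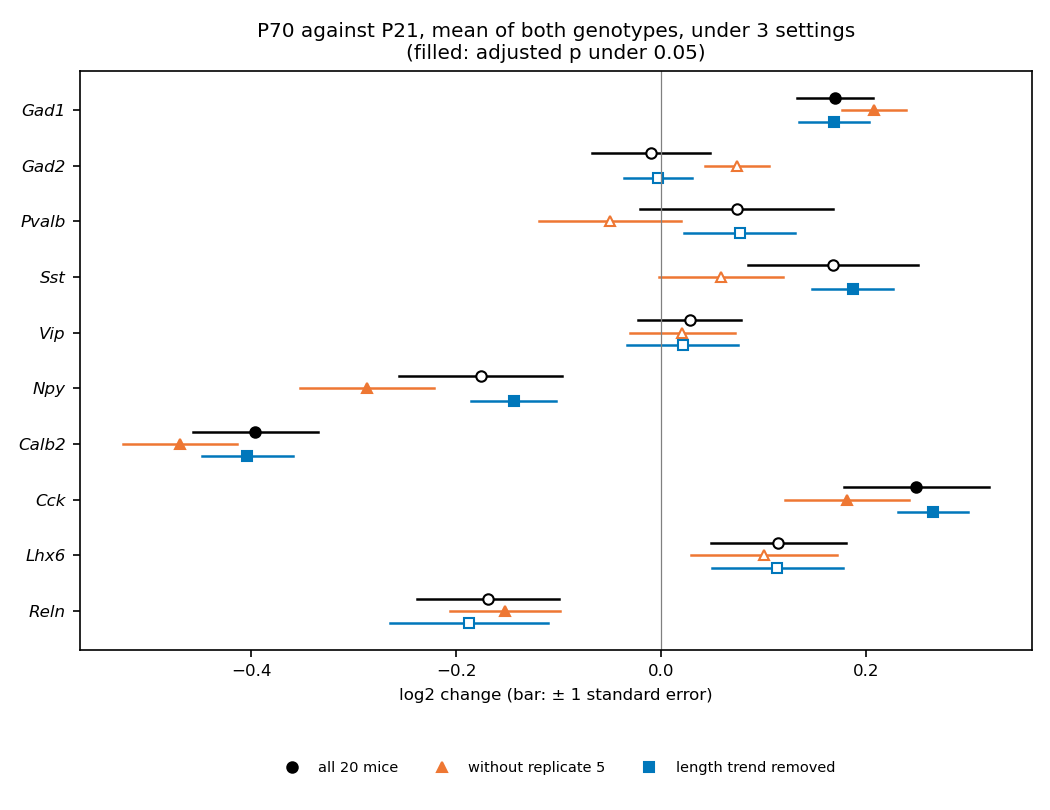
Mean log2 change from P21 to P70 over both genotypes (x axis) of the 10 marker genes under 3 settings: all 20 mice (black), without the 4 mice numbered 5 (orange) and with the trend on transcript length removed (blue). Bars are ± 1 standard error and filled points passed at an adjusted p under 0.05. Calb2, Gad1 and Cck are filled under all 3 settings, Npy under 2, and Reln and Sst under 1 each.

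Other genes of the same pathway and cells were read from lists of 43 genes in all. Between KO and WT, 0 of the 43 genes passed at either age (limma), and 4 at P21 and 0 at P70 had an unadjusted p under 0.05. Over all genes the shares under 0.05 were 2.44% at P21 and 1.13% at P70. Of the 4 genes, 2 were in the list of the Pvalb class, 1 in that of the Sst class and 1 among the transcription factors. The lists for other cells given above and below also had 0 genes passing. The lowest p was that of Sp9, a transcription factor of striatal and interneuron precursors, at P21 (log2 difference -0.31, standard error 0.11, adjusted p = 1.00 from limma). Of the 14 transcription factors 11 had negative KO differences at P21, with a median of -0.11, and 8 of 14 did at P70. In the Pvalb class the P21 differences ran from -0.08 to 0.20, 3 of 7 being positive. In the Sst class they ran from -0.31 to 0.17, 4 of 7 being positive. Of 6 olfactory bulb genes 5 had negative differences at P21, with a median of -0.43 and none at an unadjusted p under 0.05, and their part in the value of Sp9 was not tested. With age, 1 of 43 rose and 2 fell in WT mice, 0 rose and 2 fell in KO mice, and 2 rose and 6 fell in the mean of both genotypes. These are 3, 2 and 8 of 43 genes, beside 9.32%, 8.32% and 25.4% of all genes, so the lists did not stand above the background. Without the mice numbered 5 the counts were 3 up and 2 down in WT, 2 up and 6 down in KO, and 5 up and 11 down in the mean of both genotypes. More genes passed over the whole table as well in these fits, 2646 of 17653 in WT, 3417 of 17653 in KO and 6148 of 17643 in the mean. Among 6 genes of GABA handling, Abat, the enzyme that breaks GABA down, fell by 0.26 in KO mice (adjusted p = 0.0170 from limma) and was at -0.17 in WT mice, which did not pass, and it fell in the mean of both by 0.21 (adjusted p = 0.000239). Slc32a1, the vesicular GABA transporter, was at 3794 to 4277 in P21 WT and 3839 to 4794 in P70 WT mice, the highest P70 value being that of mouse 5. It did not pass with all mice. Without the mice numbered 5 it fell in the mean of both genotypes by 0.09 (adjusted p = 0.0357 from limma). It was then at -0.03 in WT and -0.14 in KO mice, neither of which passed. Of 14 transcription factors, 1 rose and 1, Prox1, fell by 0.33 in the mean of both genotypes, and 0 passed in WT or KO mice alone with all mice. Without the mice numbered 5, 1 rose in WT mice by 0.35 (adjusted p = 0.0322 from limma) and 1 fell in KO mice by 0.33 (adjusted p = 0.0175).

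Of 7 genes of the Pvalb class, Kcnc1, a potassium channel subunit of fast-firing cells, rose by 0.23 in WT mice (adjusted p = 0.0173 from limma) and by 0.17 in the mean of both genotypes. The other 6 did not pass with all mice, nor did any of the 7 in KO mice, where Kcnc1 was at 0.11. Without the mice numbered 5, 1 of the other 6 rose in KO mice by 0.22 (adjusted p = 0.0238 from limma). Another fell there by 0.21 (adjusted p = 0.0223), and genes besides Kcnc1 also passed in the mean of both genotypes. The list's sum was 24142 to 27464 in P21 WT and 27135 to 29311 in P70 WT mice, and 26381 to 28954 in P21 KO and 25867 to 30245 in P70 KO mice, and the ranges overlapped in both genotypes. Of 7 genes of the Sst class, Calb1 fell by 0.35 in KO mice (adjusted p = 0.0327 from limma), and Calb1 and Grin3a fell by 0.27 and 0.23 in the mean of both genotypes. Of 9 genes of the Vip and Lamp5 classes, Adarb2, which marks interneurons of caudal origin, fell by 0.41 in WT mice (adjusted p = 0.00938 from limma), and Id2, which is found in neurogliaform cells, fell by 0.24 (adjusted p = 0.0331). In KO mice 0 of these 9 genes passed with all mice, with Adarb2 at -0.33 and Id2 at -0.27, and both passed there without the mice numbered 5, at -0.27 (adjusted p = 0.0308 from limma) and -0.24 (adjusted p = 0.00772). Without those mice the WT calls of Kcnc1, Adarb2 and Id2 and the KO calls of Abat and Calb1 held. The median change of all 43 genes was -0.06 in WT and -0.04 in KO mice, beside 0.00 and -0.01 over all genes.

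Transcripts that mark other cells also differed between the ages. Summed over 6 genes, oligodendrocyte transcripts were at 379578 to 428153 in P21 WT and 160160 to 183859 in P70 WT mice, and 6 of 6 fell. Summed over 6 genes, general neuronal transcripts were at 152333 to 158195 in P21 WT and 153200 to 168962 in P70 WT mice, where Snap25, a synaptic vesicle fusion gene, rose by 0.25 (adjusted p = 0.0103 from limma) and the other 5 did not pass. Sums of striatal projection neuron genes, which stand for cells that also transcribe Gad1, were at 11452 to 13700 in P21 WT, 12330 to 14080 in P21 KO, 12527 to 17150 in P70 WT and 10187 to 16635 in P70 KO mice. Purkinje cell genes summed to 25382 to 32512 in P21 WT, 28236 to 34175 in P21 KO, 30004 to 43445 in P70 WT and 24718 to 42520 in P70 KO mice, and their lowest P70 sums were those of the mice numbered 5. In WT mice 1 striatal gene (Drd2, at 0.40, with Rgs9 at 0.23 not passing) and 1 Purkinje cell gene (Itpr1) rose and 1 Purkinje cell gene (Gdf10) fell. The part of these cells in the rise of Gad1 was not tested. In WT mice 1 of the 5 hypothalamic peptide genes tested (Oxt) rose, with Agrp at 2.29 to 13.1 over all mice, and 0 of 6 astrocyte and 0 of 6 microglia genes passed.

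The P70 mice numbered 5 carried much of the spread of the markers. In the WT one, 6 of 10 markers lay above the range of mice 1 to 4, 3 lay below it and 1 lay within it. In the KO one the counts were 5, 4 and 1. Pvalb was 1.44-fold and 1.52-fold the mean of mice 1 to 4 in WT and KO, Sst 1.47-fold and 1.37-fold, and Npy 1.37-fold and 1.30-fold. Gad2 was 0.858-fold and 0.712-fold, and Reln 0.791-fold and 0.827-fold. The order ran with transcript length, with the 4 markers under 1 kb (Npy, Sst, Cck and Pvalb) highest and the 2 over 5 kb (Gad2 and Reln) lowest, as the plot of these mice by transcript length shows. Vip was the exception to the like behaviour of both mice, being 1.13-fold in WT and 0.926-fold in KO.

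**Figure D4:**
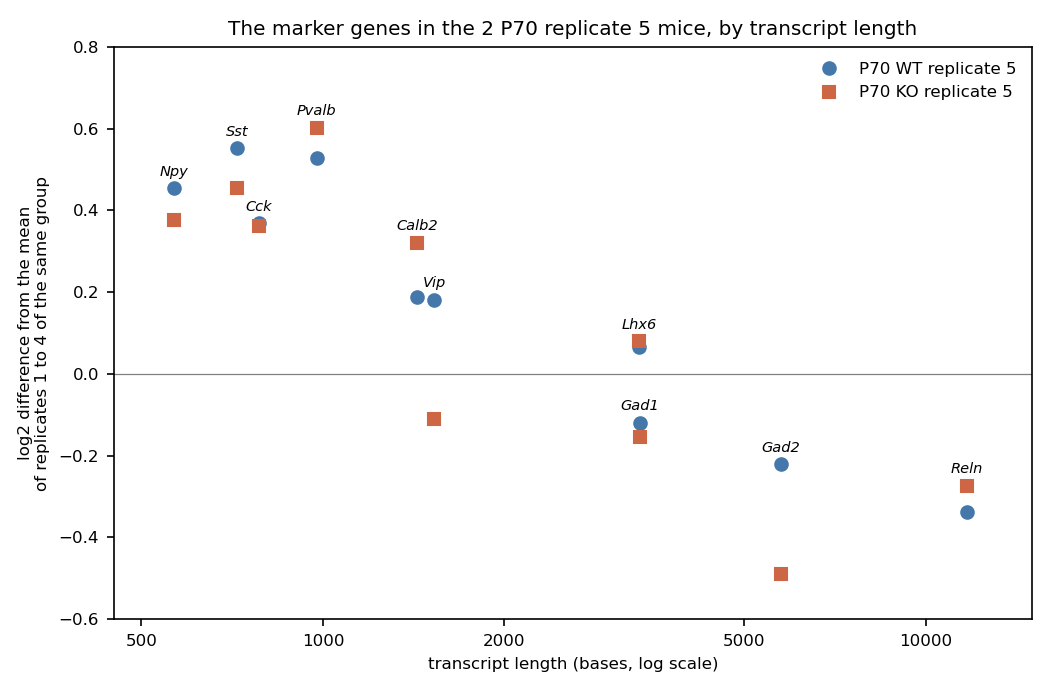
Log2 difference of each marker gene in the P70 mice numbered 5 from the mean of mice 1 to 4 of the same group (y axis), against the length of its transcript in bases (x axis, log scale). Circles are the WT and squares the KO mouse. Markers under 1 kb lie at 0.36 to 0.60 and those over 5 kb at -0.49 to -0.22.

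How the markers varied among themselves was read from the deviation of each mouse from the mean of its group. Over the 20 mice and 45 pairs of markers, 15 pairs correlated at an adjusted p under 0.05 (100000 permutations of mice within groups, Benjamini-Hochberg over the 45 pairs), 10 of them positive and 5 negative. The 10 positive pairs were all those among Pvalb, Sst, Npy, Cck and Calb2, and the 5 negative ones set Gad2 against each of these. With Spearman's rho 13 pairs passed. Without the 4 mice numbered 5 the count was 3 of 45 over 16 mice, namely the pairs among Sst, Npy and Cck, and the calls of the other 12 were lost. Several of these kept sizeable values over the 16 mice, as Pvalb and Npy at r = 0.706 (adjusted permutation p = 0.0961) and Gad2 and Pvalb at r = -0.639 (adjusted permutation p = 0.101). Short transcripts were also high in the P21 mice numbered 3, which stayed among the 16. Genes under 1 kb lay higher than those over 5 kb by 0.29 on the log2 scale in the WT and 0.30 in the KO one. The other P21 mice were at 0.06 or lower. Npy, Sst and Cck have the shortest transcripts of the markers, at 566, 721 and 783 bases. All these correlations come from the same libraries, and the part of transcript length in them was not tested.

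The closest pair was Sst and Npy, with r = 0.948 (permutation p = 1e-05, the smallest that 100000 permutations can give) and rho = 0.908 (permutation p = 2e-05) over 20 mice. It was 0.912 without the 2 mice farthest from the median of Sst and 0.924 (adjusted permutation p = 0.00270) without the mice numbered 5. Sst and Cck had r = 0.914 and rho = 0.893, with 0.851 and 0.844 after the same omissions, and Npy and Cck had r = 0.877 and rho = 0.854, with 0.786 and 0.829. The adjusted permutation p without the mice numbered 5 was 0.0277 for both of these pairs. Gad1 and Gad2 had r = 0.490 and rho = 0.177 over 20 mice, and r = -0.389 without the mice numbered 5, none of which passed. Lhx6 correlated with no other marker at an adjusted p under 0.05, nor did Vip, Reln or Gad1. Some of their values were larger without the mice numbered 5, also without passing. Gad1 and Cck went from r = -0.018 to 0.747 (adjusted permutation p = 0.072), and Gad2 and Lhx6 from 0.0909 to 0.679 (adjusted permutation p = 0.0975).

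**Figure D5:**
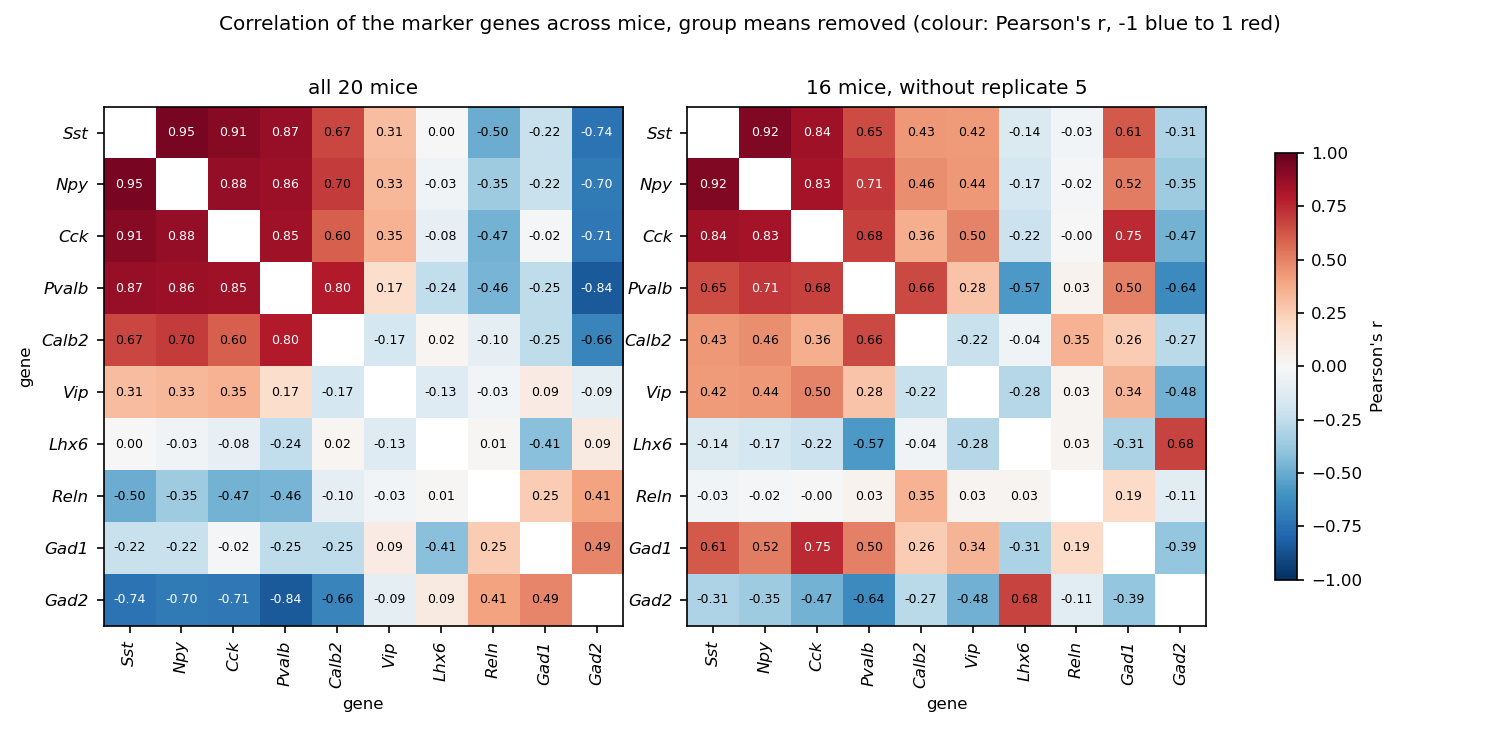
Pearson's r between the marker genes (rows and columns) across mice after removal of group means, for all 20 mice (left) and for the 16 mice not numbered 5 (right). Colour runs from blue at -1 through white at 0 to red at 1. The block of Sst, Npy and Cck holds r of 0.829 to 0.948 in both panels. The negative values of Gad2 with Pvalb, Sst, Npy, Cck and Calb2 shrink from the left panel to the right.

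Genes whose pattern across the 20 mice was most like that of each marker were found among 14681 named genes by the same measure, and are given as a description, since each is the highest of many values. Pvalb was closest to Isyna1 (r = 0.981, and 0.958 without the mice numbered 5) and Mapk8ip1 (0.975). Sst was closest to Atpif1 (0.973) and Rnf181 (0.969), Npy to Brk1 (0.953) and to Sst itself (0.948), and Cck to Eif5a (0.971) and Ap1s1 (0.952). Calb2 was closest to Zcrb1 (0.880) and Pcp4 (0.870), and Gad2 to Slc9a7 (0.958) and Chrna7 (0.957). The highest values were lower for Gad1, with Tspyl1 (0.911) and Plekha2 (0.864), for Reln, with Srsf6 (0.824) and Dync1i2 (0.813), for Lhx6, with Crmp1 (0.798) and Slc35f2 (0.728), and for Vip, with Zscan12 (0.752) and Hars2 (0.742). Apart from the pair of Npy and Sst, none of these 20 places was held by another of the markers.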

How the data were processed

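Per the labels, the authors sequenced poly-A RNA of whole brains and used Salmon 1.1.0 on GRCm38, R 3.6.2 and DESeq2 1.26.0, and the study's methods add TruSeq libraries, GC bias correction and tximport. The deposited values are normalized counts, a signal that is no longer whole reads, for 20 mice normalized together. Of 19463 gene IDs, 19447 matched a symbol, position and transcript length in GENCODE M21. Which mice were littermates or processed together is not given in the sources used here.

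Comparisons were fitted on log2(value + 1) with limma 3.58.1 in R 4.3.3 (eBayes with an intensity trend, tested on simulated data) over all genes with a mean of at least 10 in the mice fitted, two-sided, at a threshold of 0.05 on p-values adjusted by Benjamini-Hochberg over these genes. The + 1 understates changes of low genes. Permutation tests used scipy 1.17.1. Alternatives were no trend, log2(value + 10), no filter, quantile normalization, centring on each mouse's median, a replicate block, all 20 mice in 1 fit, each mouse or all mice numbered 5 left out, and removal of a length trend (lowess, span 0.3). The last and the mean of both genotypes were chosen after seeing the data.

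The markers and the lists (GABA handling, transcription factors, Pvalb, Sst, Vip and Lamp5 classes, and 11 lists for other cells) were chosen with earlier results of these data known. The genes named are the 10 markers, Katnal2, from each related list the 2 that changed most in each direction among those past the threshold with age in WT mice, from lists of other cells beside a marker's result the 2 with the largest change in WT mice, and the 2 genes nearest to each marker. Other genes were named after their values were seen. Some genes of the lists are not reported here by name.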

Additional observations from a re-analysis of the deposited data

Results flagged for a closer look

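Each of the 10 markers was looked at in each of the 4 groups of 5 mice for a mouse whose gap to its nearest neighbour took up more than 0.71 of the whole range of the group, the 95% critical value of Dixon's test for 5 values. Of these 40 groups 3 held such a mouse, where chance flags about 1 in 20 groups. Sst in the P70 KO mouse numbered 5 was at 5252 normalized counts, with a gap of 0.768 of the range. Cck in the same mouse was at 6266, with a gap of 0.829. Both genes have transcripts under 1 kb, and short transcripts were high in that mouse as a whole. Lhx6 in the P21 WT mouse numbered 4 was at 541, with a gap of 0.858, while the other 4 mice of that group lay between 383 and 405.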

How the results depend on the processing

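Between KO and WT, 0 of 10 markers passed under every alternative at both ages, as did 0 for the interaction. Over all genes the count at P21 was 0 to 1 with a mouse left out (1 without P21 WT mouse 3 or P21 KO mouse 4), and at P70 it was 1 without the mice numbered 5. For P70 against P21 in WT mice, 1 marker passed in the main analysis, 2 did without the mice numbered 5 (Calb2 and Gad1) or with the length trend removed (Calb2 and Cck), and 1 to 3 did with a mouse left out, 3 of them without P70 WT mouse 5. The genes called numbered 1643 of 17630, 2646 of 17653 without the mice numbered 5, and 2298 with the length trend removed. With a mouse left out they numbered 912 (without P21 WT mouse 4) to 3000 (without P70 WT mouse 5). In KO mice the count of markers was 1, and it was 3 with values centred on each mouse's median, 2 with all 20 mice in 1 fit, 3 without the mice numbered 5, 4 with the length trend removed and 0 to 3 with a mouse left out, 3 of them without P70 KO mouse 5. The genes called in KO mice numbered 1467 of 17641, and 3417 of 17653 without the mice numbered 5. They numbered 896 to 957 without P21 KO mouse 1, 2 or 4, and up to 3759 without P70 KO mouse 5. With values centred on each mouse's median they numbered 1577, with all 20 mice in 1 fit 2094, and with the length trend removed 2126. In the mean of both genotypes 3 markers passed, beside 4478 of 17637 genes. Without the mice numbered 5 the count was 5 markers, beside 6148 of 17643 genes. With the length trend removed it was also 5, beside 5434 of 17637 genes. The cause of these shifts was not tested.

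Same-numbered mice are different animals. The correlation of their deviations over genes ran from -0.01 to 0.26 for KO and WT at P21, 0.07 to 0.71 at P70, -0.10 to 0.16 between ages in WT and -0.12 to 0.16 in KO, and it was over 0.1 in 2, 4, 2 and 1 of 5 pairs. Of 10 mice 5, 7, 4 and 2 correlated best with the mouse of their own number. Since no comparison had all 5 pairs over 0.1, the block was not used above. Under the replicate block the count of markers called was 0 in each KO against WT fit and the interaction, 1 with age in WT, 0 with age in KO (Calb2 at an adjusted p of 0.0681 from limma, and 913 genes called) and 4 in the mean of both genotypes, Reln being added. At P70 the block lowered the standard error of the KO difference, from 0.14 to 0.06 for Sst, 0.15 to 0.07 for Pvalb and 0.10 to 0.05 for Cck. Genes with an unadjusted p under 0.05 (limma) numbered 610 there with the block and 199 without it. The P70 intervals given above are those without the block and are wider for these markers. Of the 45 pairs of markers, 15 correlated with all mice and 3 without the mice numbered 5.

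Some differences of single markers that did not pass took the other sign under an alternative, in 23 values for KO against WT at P21, 33 at P70, 40 for the interaction, and with age in 7 values in WT, 8 in KO and 5 in the mean of both genotypes. No value that passed did so.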

Other observations

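The ratio of Gad1 to Gad2 within a mouse does not depend on how the samples were scaled. It was looked at after the age changes of both genes had been seen. It averaged 1.44 ± 0.121 in P21 WT, 1.42 ± 0.0591 in P21 KO, 1.61 ± 0.0769 in P70 WT and 1.64 ± 0.203 in P70 KO mice (SD, n = 5 each). The P70 value was higher by 0.16 on the log2 scale in WT mice (exact two-sided permutation test, p = 0.0476, and 0.0952 adjusted over 4 comparisons) and by 0.20 in KO mice (exact two-sided permutation test, p = 0.0397, and 0.0952 adjusted), so neither passed after adjustment. Without the mice numbered 5 the differences were 0.16 and 0.11 (exact two-sided permutation tests, p = 0.114 and 0.143, with 4 mice a group). KO and WT mice differed by -0.01 at P21 and 0.02 at P70 (exact two-sided permutation tests, p = 0.905 and 0.865).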
